A study of Xenopus laevis with 8 samples.

Results

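Described here are the transcripts of control animal caps of the frog *Xenopus laevis*, whose embryos had received RNA for a fluorescent protein and no other, in a study of eye field transcription factors (EFTFs). The members are the arrays whose title says GFP injected, 4 of the 8 arrays in the series. The remaining 4 arrays hold caps that also received RNA for the EFTFs, and they are used only to check labels and arrays. Levels within the GFP caps are described throughout, and no EFTF effect was estimated.

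The animal cap is the roof of the blastula, an ectoderm whose cells can still take many fates. Left alone in culture, a cap becomes larval skin: an epithelium of keratin-rich cells studded with mucus-secreting goblet cells, multiciliated cells that move fluid over the surface, ionocytes that pump acid and small secretory cells that release serotonin. BMP signalling, carried by secreted BMP ligands and nuclear Smad proteins, directs ectoderm toward epidermis, whereas its inhibition allows neural fate. Caps carry little mesoderm and endoderm, which form in deeper parts of the embryo.

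The labels name the injected control RNA GFP, while the methods name *venus YFP*, and by the methods the EFTF embryos received it as well. By the methods for culture and transplantation, injected embryos came from a transgenic line that carries *venus YFP* itself. The methods for the arrays name no line. RNA was injected into both cells at the 2-cell stage. Caps were cut at stage 9 and kept in culture until sibling embryos would be at stage 15, a neural plate stage. By the methods, 10 caps were used for each array. The series describes 4 biological replicates, whereas the methods describe triplicate work on 3 days with 3 females, and no source used here ties an array to a day or a female. The SDs below therefore measure the spread between these 4 arrays (GFP 1 to GFP 4), whatever its origin. A cap is a mixture of cells, so fewer cells of a type and less RNA per cell cannot be told apart.

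Each array, an Affymetrix *X. laevis* GeneChip, read 15491 probe sets for transcripts, of which 9304 carry exactly 1 gene symbol, giving 7531 symbols. Levels are log2 intensities, and a difference of 1 on this scale is a doubling of signal. The brightest probe set was taken for a symbol that had more than 1. *X. laevis* carries a duplicated genome, and .L and .S mark the 2 copies of a gene. Background was read from 17 tag controls, probe sets that match no transcript of the frog. Their highest level was 2.97, 2.94, 2.93 and 2.90 on GFP 1 to GFP 4. A gene was called above background when it exceeded this limit on all 4 arrays. Medians of the arrays lay between 4.07 and 4.19, and 80.8% to 81.7% of probe sets were above the limit on an array.

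Before the levels, 2 arrays call for comment. The source label of GFP 1 says EFTF although its title says GFP. Among 20 probe sets for the 7 injected factors, GFP 1 lay below every EFTF array in 15. *otx2.L*, a homeobox gene of forebrain and eye field, read 6.30 on GFP 1, against 5.53 to 6.06 on the other GFP arrays and 9.21 to 9.73 on the EFTF arrays. *six6.L* read 4.68 on GFP 1, 3.45 to 4.38 on the other GFP arrays and 7.54 to 9.00 on the EFTF arrays. GFP 1 lay within the range of the other GFP arrays in 6 of the 20. For comparison, among all probe sets above background it was the highest of the 4 GFP arrays in 28.2% and the lowest in 23.5%. Values outside the range lay on either side. A *pax6.L* probe set read 4.16 on GFP 1, below the other GFP arrays (4.21 to 4.36) and the EFTF arrays (5.82 to 7.09). *tbx3.L* read 3.63 on GFP 1, inside the EFTF range of 3.28 to 4.11 and below the other GFP arrays (4.41 to 4.76). Over all probe sets GFP 1 correlated best with EFTF replicate 1 (r = 0.983), ahead of GFP 2 and GFP 3 (0.977 each). With EFTF replicates 2 to 4 its correlations were lower, at 0.958, 0.929 and 0.915. The mean correlation of GFP 1 was 0.972 with the other GFP arrays and 0.946 with the EFTF arrays. For EFTF replicate 1 it was 0.970 with the GFP arrays and 0.960 with the other EFTF arrays. GFP 1 was kept in the group of its title.

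The array that stood farthest apart was GFP 4. Its correlations with the other GFP arrays over all probe sets were 0.961, 0.961 and 0.967, against 0.977, 0.977 and 0.987 among GFP 1 to GFP 3. GFP 4 held 40.5% of the summed squared deviation of probe sets above background, where GFP 1 held 25.5%, GFP 2 18.5% and GFP 3 15.5%. Its controls differed as well. Of 18 probe sets for spiked-in bacterial hybridisation controls, 17 were lowest on GFP 4, and the median over the 18 of GFP 4 minus the mean of the other 3 arrays was -0.45. The 3′ minus 5′ difference of the actin controls, a sign of RNA integrity or labelling, was -0.04, -0.31, -0.91 and -1.08 on GFP 1 to GFP 4, and that of the GAPDH controls was 2.44, 2.82, 2.58 and 1.99. GFP 4 was lowest in both. A control probe set whose target the tables used here do not name read 12.32, 12.23, 12.42 and 2.94 on GFP 1 to GFP 4. Conversely, another such probe set read 2.85, 2.82, 2.63 and 11.33, and a further one read 2.59, 2.48, 2.53 and 11.54. EFTF replicate 4 differed from the other EFTF arrays in the same 3 probe sets in the same direction. Deviations of GFP 4 from the mean of its group correlated with those of EFTF replicate 4 over 11376 probe sets (r = 0.66, across probe sets, which are not independent). This was not particular to replicate 4, since the same correlation was 0.45 for replicate 1, 0.62 for replicate 2 and 0.23 for replicate 3. For GFP 1, GFP 2 and GFP 4, the EFTF array of the same number gave the highest correlation of the 4 EFTF arrays. GFP 3 instead correlated more with EFTF replicate 2 (0.29) than with EFTF replicate 3. What part these differences have in the gene levels was not tested, and some levels that turn on GFP 4 are given with and without it. A control probe set named for a GFP variant read 3.05, 3.02, 3.31 and 3.03, just over the limit on each array. No source used here says whether this probe set, or the 3 that differed on replicate 4, could match the injected RNA.

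Most of the array read above the background limit in GFP caps, many probe sets by less than 1 log2 unit. Controls other than the tags could pass this limit too. A bacterial labelling control did so on GFP 1 to GFP 3 (3.45, 3.14 and 3.30). By more than 1 log2 unit, 0 of 27 such labelling controls passed it on any GFP array. On all 4 arrays 11376 of 15491 probe sets were above background (73.4%), 1790 were at or below it (11.6%) and 2325 were mixed. A total of 7331 exceeded the limit by more than 1 log2 unit on all 4 arrays (47.3%). Of the 11376, 3305 had a mean level of at most 4. Counted by gene symbol, 5982 of 7531 were above background (79.4%), 644 were at or below it on all 4 arrays (8.55%), and 4182 exceeded the limit by more than 1 log2 unit on all 4 (55.5%). A one-sided limma test of each probe set against the limit of its array, with Benjamini-Hochberg adjustment over all 15491, called 11141 (71.9%). Of these, 11040 were among the 11376. Where both copies of a gene had a probe set, in 1017 pairs, both were above background in 739 (72.7%), only .L in 100, only .S in 71 and neither in 107.

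The strongest signals came from the machinery of translation and from skin. The rank is one of signal, which depends on the probes as well as on the amount of transcript, so it does not order the transcripts by amount. *rps29.S*, a protein of the small ribosomal subunit, ranked first with 12.61, 12.51, 12.69 and 12.66 on GFP 1 to GFP 4 (mean 12.62 ± 0.08 SD, n = 4). *rps27.S* followed with 12.50 ± 0.12. *rpl10a.S* of the large subunit had a mean of 12.01 ± 0.03 and hardly differed between arrays. Among the 20 strongest symbols, 7 were ribosomal proteins, 4 were keratins (*krt70.S*, *krt12.4.S*, *krt12.4.L* and *krt7.L*), 2 were the elongation factors *eef1a1.S* and *eef1b2.L*, and 1 was *itln1.L*. The others included *ftmt.S*, a mitochondrial ferritin (12.46 ± 0.18), *srsf2.L*, a splicing factor (12.27 ± 0.06), *cirbp.S*, a cold-inducible RNA-binding protein (12.19 ± 0.07), and *actb.L*, cytoplasmic actin (11.87 ± 0.20). Of the 100 strongest, 30 were ribosomal proteins, and of the 500 strongest, 67 were, which is 90.5% of those measured.

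**Figure D1:**
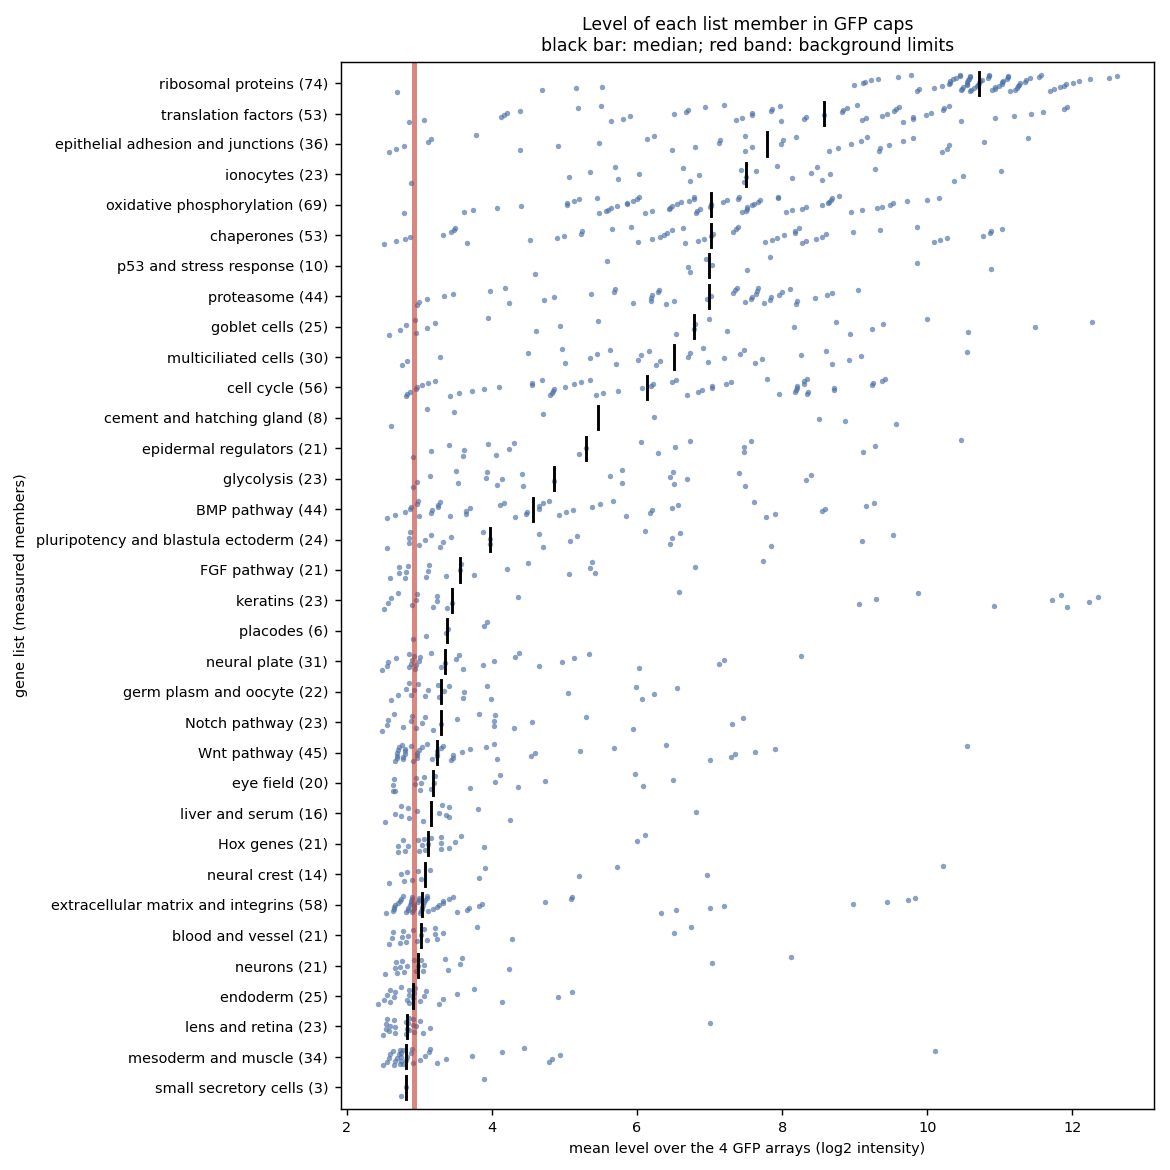
Mean log2 intensity over the 4 GFP arrays (x axis) of each measured member of 34 gene lists (rows, number of measured members in brackets). Each point is a gene symbol, black bars are list medians and the red band spans the background limits of the 4 arrays (2.90 to 2.97). Medians run from 10.70 for ribosomal proteins to 2.81 for small secretory cells.

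Lists of genes that every cell needs lay almost wholly above background, where 79.4% of all symbols lay. Among ribosomal proteins 73 of 74 were above it (median level 10.70), and 63 of the 73 were lowest on GFP 4, where 31.4% of all symbols above background were lowest. Translation factors were above background in 52 of 53 (median 8.57), subunits of oxidative phosphorylation in 68 of 69 (median 7.02), proteasome subunits in 43 of 44 (median 6.99) and chaperones in 48 of 53 (median 7.02). *eif5a.L*, a translation factor, read 11.60 ± 0.14, and *canx.L*, the endoplasmic reticulum chaperone calnexin, read 11.03 ± 0.23. *atp5f1b.S*, a catalytic subunit of mitochondrial ATP synthase, read 10.16 ± 0.18. The cell cycle list was above background in 50 of 56 (median 6.13). Its brightest member, *cdc20.S*, an activator of the anaphase-promoting complex, read 9.48, 9.12, 9.49 and 9.54. Both copies of the mitotic cyclin *ccnb1.2* were near it, with 9.38 ± 0.35 for .L and 9.25 ± 0.30 for .S, and the proliferation marker *mki67.S* read 8.72 ± 0.51. *cdk4.S*, a kinase of the G1 phase, read 8.12, 8.30, 8.50 and 9.92, the highest value falling on GFP 4. Glycolysis was lower, with 20 of 23 genes above background and a median of 4.86. *pkm.S*, pyruvate kinase, read 8.63, 7.04, 7.95 and 6.33, and *aldoa.S*, aldolase, had a mean of 6.69 ± 1.03. In both genes GFP 1 was highest and GFP 4 lowest, and 10 of the 20 genes were highest on GFP 1, where 28.9% of all symbols above background were highest.

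Keratins fell into a bright and a dim set. Of 23 measured keratins, 15 were above background on all 4 arrays (65.2%, against 79.4% of all symbols), 3 were at or below it on all 4 (*krt61.L*, *krt62.L* and *krt78.6.L*) and 5 were mixed. *krt70.S* read 12.35, 12.23, 12.54 and 12.28 on GFP 1 to GFP 4, and its 3 other probe sets had means of 12.17, 11.19 and 10.44. *krt12.4.S* read 12.22, 12.27, 12.32 and 12.08, and *krt12.5.S* had a mean of 11.71 ± 0.10. On none of the arrays did these genes stand apart. The type I keratin *krt19.L* (9.29 ± 0.63) and *krt8.1.S* and *krt18.1.L*, the keratin pair of simple epithelia (9.87 ± 0.28 and 9.05 ± 0.56), were lower in signal. *krt18.1.S*, the second copy of *krt18.1*, had a mean of only 4.36 ± 0.35. In the dim set, *krt51.L* (3.18 ± 0.10) and *krt12.2.S* (3.24 ± 0.22) were above the limit on every array but close to it. The median SD of the keratins above background was 0.173, against 0.277 for all symbols above background. Most of these keratins had means above 10 or under 4. At such levels the median SD of all probe sets above background was 0.193 and 0.177, close to that of the keratins.

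Of 32 epidermis markers, keratins included, 23 were above background (71.9%, a smaller share than the 79.4% of all symbols). By more than 1 log2 unit on all 4 arrays, 19 of the 32 exceeded the limit, as did 55.5% of all symbols. Transcription factors of the epidermis were among those above background, and their levels varied more than those of keratins (median SD 0.532). Without GFP 4 their median SD was 0.309, and that of keratins 0.179. At mean levels from 6 to 8, where their median of 6.17 lay, the median SD of all probe sets above background was 0.359. Of 21 such factors measured, 18 were above background (85.7%) and 0 were at or below it on all 4 arrays. *grhl1.L*, a grainyhead factor that drives keratin genes in frog skin, read 10.58, 10.44, 10.37 and 10.43. *dlx3.L*, a homeobox gene of non-neural ectoderm, read 8.49, 8.88, 9.10 and 9.97, and *dlx3.S* read 9.27, 9.60, 8.97 and 9.30. The .L copy of *dlx3* was thus lowest on GFP 1 and highest on GFP 4, which was not so for the .S copy. *grhl3.L*, a relative of *grhl1* that acts in epidermal differentiation and wound closure in mice, read 7.18, 7.31, 6.94 and 8.45. *gata2.L* read 6.93, 7.43, 7.20 and 8.34, and *msx1.L*, a homeobox gene downstream of BMP signalling, read 7.08, 7.87, 7.17 and 8.13. *tfap2a.L*, an AP-2 factor required for epidermis and neural crest, read 5.85, 6.82, 6.98 and 7.29. From *grhl3.L* to *tfap2a.L*, the highest value of each gene lay on GFP 4. Of the 18 genes, 13 were highest on GFP 4 (32.7% of all symbols above background were) and 12 were lowest on GFP 1 (23.7% of all symbols were). *tp63.L*, the p63 gene of basal epidermis, was near the limit at 2.83, 3.08, 3.31 and 3.40, above it on 3 arrays.

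Genes of cell adhesion formed one of the brightest lists outside housekeeping. Above background were 33 of 36 (91.7%, against 79.4% of all symbols). By more than 1 log2 unit on all 4 arrays, 30 of the 36 exceeded the limit (83.3%, against 55.5% of all symbols). The median was 7.78. *cldn4.L*, a claudin of tight junctions, read 11.39 ± 0.18. Plakoglobin (*jup.S*, 10.78 ± 0.14) and plakophilin 3 (*pkp3.S*, 10.20 ± 0.35), components of desmosomes, were close to it in signal, as was β-catenin (*ctnnb1.L*, 10.28 ± 0.22), which links cadherins to the cytoskeleton and carries Wnt signals. *epcam.S*, an epithelial adhesion molecule, read 10.11, 9.62, 9.38 and 9.56, and *epcam.L* read 9.06, 7.44, 8.33 and 10.26. E-cadherin differed most. *cdh1.S* read 8.56, 7.69, 7.86 and 4.45, so GFP 4 lay 3.24 below the lowest other array, and the SD was 1.83 with GFP 4 and 0.46 without it.

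Markers of the cell types that sit in the larval skin were detected unevenly. For goblet cells, *itln1.L*, an intelectin secreted with the mucus, was among the strongest signals of the array, with 12.06, 12.38, 12.66 and 11.97. The wider goblet list, which holds annexins and uroplakins of other epithelia too, was above background in 19 of 25 (76%, close to the 79.4% of all symbols, median 6.79). *anxa4.L*, an annexin, read 11.48 ± 0.20 and *upk1a.S*, a uroplakin, read 10.56 ± 0.15. Ionocytes were represented by 22 of 23 genes (95.7%, against 79.4% of all symbols, median 7.51). Each of the 22 was over the limit by more than 1 log2 unit on all 4 arrays, where 55.5% of all symbols were. Most of these 23 genes encode subunits of the vacuolar proton pump, which other cells use as well. *atp6v1b1.L*, a pump subunit that marks ionocytes, read 10.35, 10.68, 10.67 and 10.25, and *ca12.L*, a carbonic anhydrase, read 10.40, 10.31, 10.39 and 10.38. The ionocyte regulators *foxi1.L* and *ubp1.L* read 5.73 ± 0.37 and 6.85 ± 0.41. The ionocyte genes were lowest on GFP 4 in 14 of 22, against 31.4% of all symbols above background, and highest on GFP 2 in 15 of 22, against 24%. *ca2.S*, cytosolic carbonic anhydrase, read 7.66, 8.15, 7.98 and 5.92.

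Multiciliated cells were represented by 28 of 30 genes (93.3%, against 79.4% of all symbols, median 6.51). *tubb4b.L*, the tubulin of motile cilia, which other cells also use, read 10.54 ± 0.29. Of genes for parts of the axoneme, *tekt4.S* read 8.69, 8.83, 9.25 and 8.92, and *dnai1.L*, a dynein intermediate chain, read 7.98, 8.75, 7.82 and 8.51. *ccno.L*, a cyclin needed to multiply centrioles, read 6.13, 5.06, 4.99 and 6.69, and *rfx2.S*, a transcription factor of ciliogenesis, read 4.50 ± 0.08. The factor *myb.S*, active early in this lineage, was not above background on any array (2.70 to 2.79). Of the 28 genes, 15 were lowest on GFP 1, as were 23.7% of all symbols above background. Small secretory cells left the weakest trace. Their regulator *foxa1.S* read 4.08, 3.71, 4.03 and 3.76, and *tph1.L*, the enzyme of serotonin synthesis, was not above background on any array (2.71 to 2.79).

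**Figure D2:**
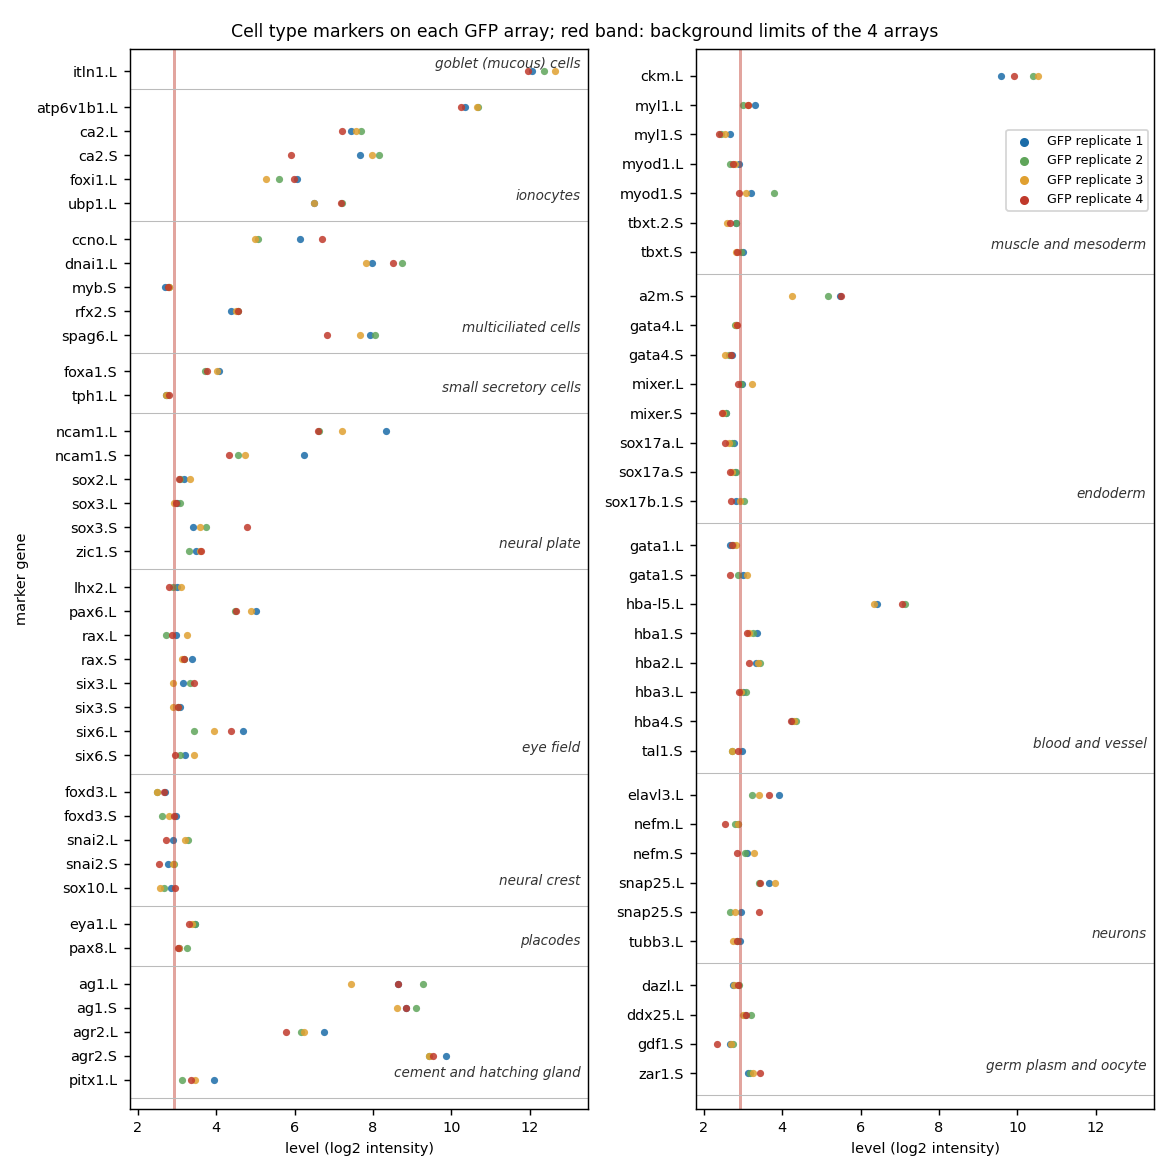
Log2 intensity of cell type markers other than epidermis (rows) on each of the 4 GFP arrays (coloured points). The red band spans the background limits of the 4 arrays. Goblet cell and ionocyte markers lie well to its right, as do cement gland markers other than *pitx1.L*. Neural crest markers lie near it or below it, and *ckm.L* stands apart from the other muscle genes.

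Markers of neural ectoderm were close to the limit. All 6 neural plate markers were above background, but only *ncam1.L* and *ncam1.S* exceeded the limit by more than 1 log2 unit on all 4 arrays. *sox2.L*, a SoxB1 factor of neural progenitors, read 3.19, 3.06, 3.34 and 3.06, and *sox3.S* read 3.40, 3.73, 3.60 and 4.80. *ncam1.L*, a neural cell adhesion molecule, read 8.33, 6.62, 7.22 and 6.60, and *ncam1.S* read 6.23, 4.56, 4.73 and 4.32. Both copies of *ncam1* were highest on GFP 1. In the wider list, 19 of 31 genes were above background (61.3%, against 79.4% of all symbols). Of the list, 8 exceeded the limit by more than 1 log2 unit on all 4 arrays (25.8%, against 55.5%). Its brightest member, *msi1.S*, an RNA-binding protein of neural progenitors, read 9.01, 7.72, 7.99 and 8.34, again highest on GFP 1. *cdh2.S*, N-cadherin, read 6.27, 4.15, 4.87 and 6.04.

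Of 8 eye field markers 4 were above background on all 4 arrays (50%, against 79.4% of all symbols). Of these, *pax6.L* alone exceeded the limit by more than 1 log2 unit on all 4 arrays. *pax6.L* read 5.03, 4.48, 4.88 and 4.52 with the brightest of its probe sets. Its other probe sets had means of 4.26, 4.25, 3.74, 3.38 and 2.80, the last not above background on any array. The level of *pax6.L* thus depended on the probe set. *rax.S*, the retinal homeobox gene, read 3.37, 3.17, 3.14 and 3.18, and *six3.S* read 3.09, 3.03, 2.90 and 3.03. *otx1.L*, an anterior homeobox gene, read 6.70, 7.05, 5.85 and 4.73, and *tbx3.S*, a T-box gene, read 4.73, 6.11, 7.04 and 8.10. *otx1.L* was lowest and *tbx3.S* highest on GFP 4, and *tbx3.S* had an SD of 1.43, or 1.16 without that array. Neural crest markers were lower still: 0 of 5 were above background on all 4 arrays, with *foxd3.L* at 2.59 ± 0.10 and *snai2.S* at 2.79 ± 0.18. The wider crest list held 6 of 14 above background (42.9%, against 79.4% of all symbols). Among them was *pax3.L*, a paired-box gene of the neural plate border and of muscle precursors, at 10.19, 9.91, 10.26 and 10.52. The 3 other probe sets of *pax3.L* had means of 8.97, 3.07 and 2.76, so its level depended on the probe set. *ets1.S* read 3.02, 3.39, 3.52 and 5.67. The other copy, *ets1.L*, was brighter at 5.72, 7.48, 7.07 and 7.56, while another of its probe sets had a mean of 3.20. The placode markers *eya1.L* and *pax8.L* were above the limit on every array but close to it, at 3.40 ± 0.08 and 3.09 ± 0.10.

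Cement gland genes were an exception among the anterior structures. The cement gland is a mucus organ at the front of the head, and *ag1* and *agr2* encode secreted proteins it is rich in. *agr2.S* read 9.87, 9.43, 9.43 and 9.53. *ag1.S* read 8.85, 9.11, 8.63 and 8.85, and *ag1.L* read 8.65, 9.28, 7.44 and 8.65. All 3 were far above the limit on every array with these probe sets. The other probe set of *ag1.S* was close to it, with a mean of 3.49. *pitx1.L*, a homeobox gene of the gland, read 3.94, 3.13, 3.47 and 3.36.

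The lists of mesoderm, endoderm, blood, neurons, and lens and retina had smaller shares above background than the array as a whole. In the mesoderm and muscle list 11 of 34 were above it and 16 at or below it on all 4 arrays, in the endoderm list 7 of 25 and 10, in the blood and vessel list 9 of 21 and 7, in the neuron list 8 of 21 and 8, and in the lens and retina list 2 of 23 and 12. These shares, 32.4%, 28%, 42.9%, 38.1% and 8.70%, compare with 79.4% of all symbols. The endoderm regulators *sox17a.L* (2.66 ± 0.10), *gata4.L* (2.82 ± 0.02) and *mixer.S* (2.52 ± 0.05) were not above background on any array, and neither were the muscle regulator *myod1.L* (2.78 ± 0.10), the brachyury gene *tbxt.2.S*, which marks early mesoderm (2.72 ± 0.12), the red cell factor *gata1.L* (2.73 ± 0.06) and the neuronal tubulin *tubb3.L* (2.83 ± 0.07). The other copies of some of these genes crossed the limit on part of the arrays. *myod1.S* read 3.21, 3.79, 3.07 and 2.90, above it on 3 arrays, and *mixer.L* (3.00 ± 0.15) was above it on 3 as well. *gata1.S* and *tbxt.S* were above it on 2 arrays, with means of 2.91 ± 0.19 and 2.90 ± 0.09.

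Some genes of these lists were well above the limit, and the brightest are given here. *ckm.L*, muscle creatine kinase, read 9.59, 10.39, 10.52 and 9.92, while its 2 other probe sets had means of 3.69 and 3.40. *a2m.S*, alpha-2-macroglobulin, an endoderm marker of the frog, read 5.48, 5.16, 4.26 and 5.50. The α-globin *hba-l5.L* read 6.42, 7.14, 6.35 and 7.05, and *hba4.S* read 4.24, 4.34, 4.30 and 4.23, whereas *hba1.S* and *hba2.L* were at 3.21 ± 0.11 and 3.32 ± 0.12. *syt1.L*, a calcium sensor of synaptic vesicles, read 8.24, 8.14, 8.03 and 8.06, and *gad1.2.L*, which makes the transmitter GABA, read 7.06, 6.85, 6.62 and 7.57. *crygbl.4.S*, a crystallin of the gamma family, read 6.93, 6.59, 6.91 and 7.57, and its other probe set had a mean of 3.30. *fetub.S*, a fetuin, the brightest gene of the liver and serum list, read 7.42, 8.59, 7.49 and 3.74. Its SD was 2.12, and 0.66 without GFP 4. *hoxa3.S*, a Hox gene of the hindbrain and neck region, read 4.57, 6.95, 6.83 and 6.08, and *hoxc10.L*, a posterior one, read 6.15, 5.77, 6.14 and 5.96. The other 6 Hox genes above background exceeded the limit by less than 1 log2 unit on at least 1 array. Of genes known from the oocyte and germ plasm, *ddx4.L*, the vasa helicase, read 6.67, 6.28, 6.09 and 5.87. *h1-8.S*, the maternal linker histone, read 6.65, 5.38, 4.47 and 7.42, whereas *dazl.L* (2.81 ± 0.07) and *gdf1.S* (2.60 ± 0.18) were not above background on any array.

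Parts of the signalling pathways were detected to different degrees. FGF genes were above background in 15 of 21 (71.4%), the brightest being *etv4.L*, a transcription factor and target of the pathway (7.74 ± 0.20), and the adaptor *frs2.L* (6.79 ± 0.18). The other probe set of *frs2.L* was not above background on any array (mean 2.73). The ligand *fgf8.L* read 5.92, 4.71, 5.45 and 5.42. Wnt genes were above background in 26 of 45 (57.8%) and Notch genes in 13 of 23 (56.5%), smaller shares than the 79.4% of all symbols. *sfrp2.S*, a secreted Wnt inhibitor, read 10.18, 11.39, 11.34 and 9.27. *fzd7.L*, a Wnt receptor that acts in ectoderm and mesoderm, read 9.48, 8.40, 8.14 and 5.56, and the next brightest of its 5 probe sets read 6.94, 6.19, 5.10 and 4.62. These 2 probe sets, the only ones of the 5 above background on all 4 arrays, were highest on GFP 1 and lowest on GFP 4. *dvl3.L*, a Dishevelled protein, read 6.51, 6.98, 7.08 and 8.59. *notch1.S*, a Notch receptor, read 8.04, 6.98, 6.50 and 8.29, and *mib1.L*, a ligase that activates its ligands, read 7.31 ± 0.38. In the list of pluripotency and blastula ectoderm 19 of 24 genes were above background (79.2%). *sox11.S*, a SoxC factor, read 10.33, 10.13, 9.62 and 8.04, *myc.L* read 6.86, 7.78, 7.62 and 9.13, and *lin28a.S*, an RNA-binding protein that blocks let-7 maturation, read 5.97, 5.98, 6.33 and 8.07. *sox11.S* was lowest on GFP 4, while *myc.L* and *lin28a.S* were highest there.

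Of the extracellular matrix and integrin list, 27 of 58 genes were above background (46.6%, against 79.4% of all symbols). The median level was 3.04 over those measured. Fibronectin (*fn1.S*) read 10.30, 9.42, 9.62 and 9.98. *sparc.S*, a matrix protein that binds collagen, read 5.87, 7.76, 8.62 and 5.79, with GFP 2 and GFP 3 above GFP 1 and GFP 4. All 10 p53 and stress genes were above background (100%, against 79.4% of all symbols, median 6.99). *hspa1l.S*, an Hsp70 protein, read 10.88 ± 0.11, and *sesn1.L*, a p53 target, read 8.15, 8.41, 7.49 and 6.02.

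The BMP pathway is described in more detail, since it is the signal under which caps become skin and since several of its genes were among those that varied most between the arrays. Of 44 measured members, 35 were above background (79.5%, the share of all symbols being 79.4%). Of the ligands, *bmp7.1.L* was the brightest, with 5.74, 5.84, 6.27 and 6.97 on GFP 1 to GFP 4. Next by mean level were *bmp4.S* and *bmp7.2.L*. *bmp4.S* read 4.36, 4.90, 5.30 and 8.10 on GFP 1 to GFP 4, and *bmp7.2.L* read 4.81, 4.32, 4.46 and 7.94. Without GFP 4 their means were 4.85 ± 0.47 and 4.53 ± 0.25 (SD, n = 3), and GFP 4 lay 9.46-fold and 10.7-fold above them. *bmp2.L*, by contrast, read 5.16, 4.19, 4.53 and 4.02 and was lowest on GFP 4. Among receptors, *acvr1.L*, a type I receptor, read 9.06, 8.54, 9.25 and 9.79, and *acvr2b.S*, a type II receptor, read 7.57, 8.08, 7.74 and 7.74. Several extracellular regulators varied widely. *szl.L*, the Sizzled protein, which inhibits the proteases that degrade Chordin, read 3.12, 3.89, 4.80 and 8.68, with the largest SD among symbols above background (2.47, and 0.84 without GFP 4). *tll1.S*, one of those proteases, read 3.69, 4.58, 4.67 and 7.14, and *bambi.L*, a pseudoreceptor that dampens the signal, read 4.45, 4.63, 5.29 and 7.59. Both were highest on GFP 4 and lowest on GFP 1. The antagonists *nog.L* (Noggin, 2.56 ± 0.10) and *cer1.S* (Cerberus, 2.67 ± 0.07) were not above background on any array, and *chrd.1.S* (Chordin) read 3.30, 3.35, 3.74 and 3.29.

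Inside the cell, the inhibitory Smad *smad7.L* read 7.85, 7.90, 7.93 and 10.53. With this probe set GFP 1 to GFP 3 hardly differed (SD 0.04), and GFP 4 lay 6.21-fold above their mean. The 2 other probe sets of *smad7.L* were highest on GFP 4 as well. The brighter of them read 6.85, 7.37, 6.67 and 9.55, and the dimmer read 3.17, 3.45, 3.16 and 4.58. *smad4.L*, the common partner of receptor-activated Smads, read 6.19, 6.36, 6.38 and 7.33. Target genes were not all alike on GFP 4. *ventx2.1.S*, a homeobox gene induced by BMP, read 6.31, 5.73, 6.11 and 7.79, highest on GFP 4. The Id gene *id2.L* read 8.63, 8.47, 8.29 and 8.97, also highest there. *id2.S* read 8.48, 9.36, 9.60 and 9.61, with GFP 3 and GFP 4 nearly equal. In contrast, *id3.S* read 7.90, 7.54, 7.38 and 7.62 and was highest on GFP 1. Of the 35 members above background, 24 were highest on GFP 4, where 32.7% of all symbols above background were highest. At least 1 log2 unit above each of the other 3 arrays on GFP 4 were 10 of the 35, against 2.71% of all symbols. These were *szl.L*, *bmp7.2.L*, *bmp4.S*, *tll1.S*, *bambi.L*, *bambi.S*, *bmper.L*, *smad7.L*, *smad9.S* and *ventx2.1.S*. Those of the BMP genes given here that lie outside the naming rule (*bmp2.L*, *bmp7.1.L*, *tll1.S*, *bambi.L*, *bambi.S*, *bmper.L*, *smad4.L*, *smad9.S*, *id3.S*, *chrd.1.S*, *nog.L* and *cer1.S*) were chosen after their values were seen. On EFTF replicate 4, 9 of the same 35 were the highest of the 4 EFTF arrays, against 32.5% of all symbols. Of the 10 genes just listed, *szl.L*, *bmp7.2.L*, *bmp4.S*, *tll1.S*, *bmper.L* and *smad7.L* were among these 9. The genes *bambi.L*, *bambi.S*, *smad9.S* and *ventx2.1.S* were not. On EFTF replicates 1 to 4, *bmp7.2.L* read 4.42, 4.22, 4.67 and 8.19, and *bambi.L* read 4.72, 4.97, 4.03 and 4.18. The median SD of the 35 was 0.504, and 0.279 without GFP 4. The control probe sets that differed on both replicate 4 arrays were given above, and their part in the BMP values was not tested.

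**Figure D3:**
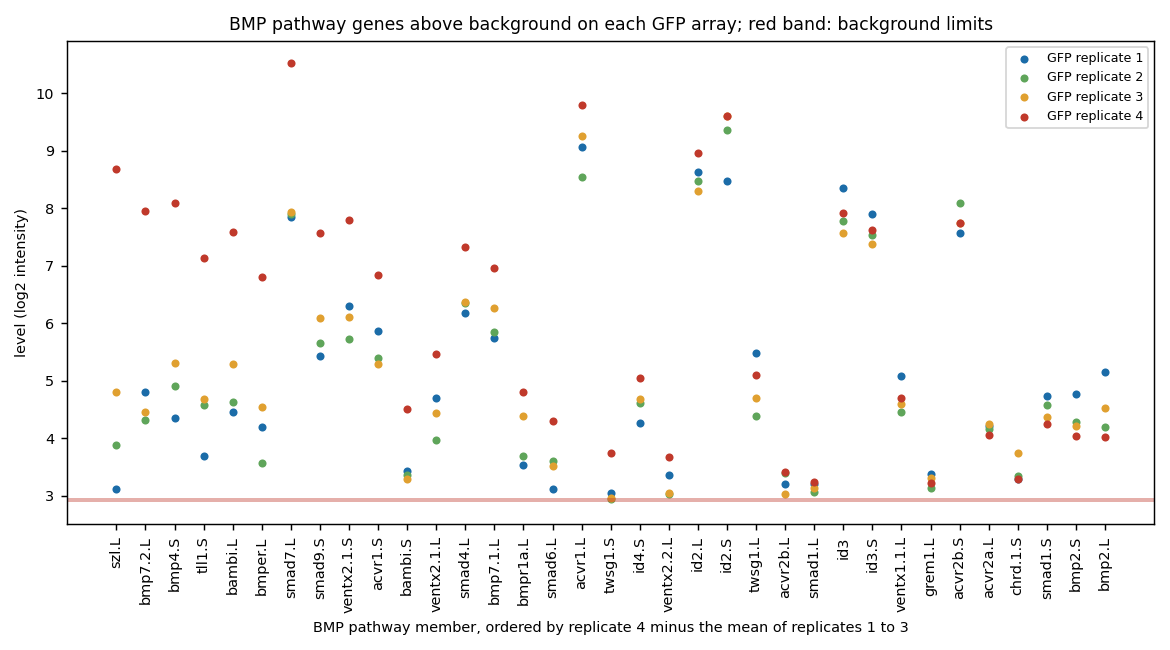
Log2 intensity (y axis) of the 35 BMP pathway members above background (x axis) on each GFP array (coloured points), ordered by GFP 4 minus the mean of GFP 1 to GFP 3. The red band spans the background limits. GFP 4 is the highest point for 24 of the 35, and the 3 genes with the widest gaps are *szl.L*, *bmp7.2.L* and *bmp4.S*.

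The other lists were read in the same way, as the median over members of the level on an array minus the gene's mean over 4 arrays. Over all 5982 symbols above background this median was 0.01, 0.01, -0.04 and 0.00 on GFP 1 to GFP 4. On GFP 4 it was 0.60 for epidermal regulators, 0.56 for the BMP pathway, 0.46 for pluripotency genes and 0.25 for the cell cycle. Of the cell cycle genes, 25 of 50 were highest there, against 32.7% of all symbols above background. The median on GFP 4 was -0.26 for ribosomal proteins, -0.25 for oxidative phosphorylation and -0.32 for ionocyte genes. Of the oxidative phosphorylation genes, 46 of 68 were lowest there, against 31.4% of all symbols above background. On GFP 1 the median was 0.45 for glycolysis and 0.35 for germ plasm and oocyte genes, and -0.42 for epidermal regulators. Keratins stayed within -0.11 and 0.11 on all 4 arrays.

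**Figure D4:**
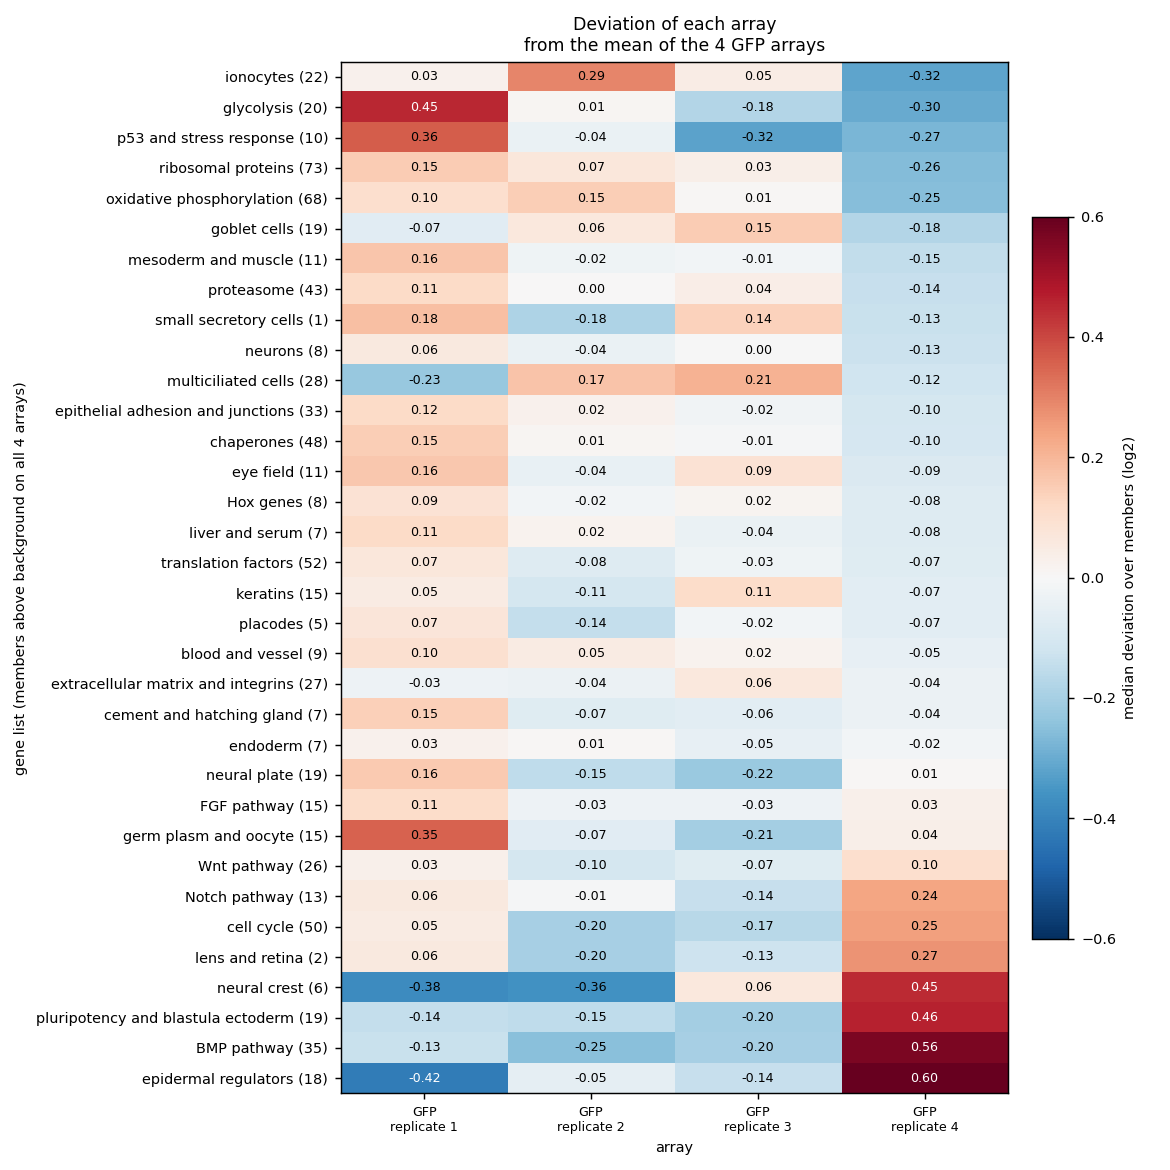
Median over list members of the log2 level on an array minus the gene's mean of the 4 GFP arrays (colour and number in each cell), for 34 lists (rows, members above background in brackets) and 4 arrays (columns). GFP 4 has the largest positive medians, 0.60 for epidermal regulators and 0.56 for the BMP pathway, and GFP 1 has 0.45 for glycolysis.

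Across the whole array the spread was small and depended on the level. The median SD was 0.276 among the 11376 probe sets above background and 0.277 among symbols above background, or 0.220 for symbols without GFP 4. It was 0.177 for mean levels under 4, 0.339 from 4 to 6, 0.359 from 6 to 8, 0.284 from 8 to 10 and 0.193 above 10. The SD exceeded 1 in 225 probe sets (1.98%) and in 102 symbols (1.71%), among them 7 of the 35 BMP genes.

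The 15 symbols of largest SD included, besides those above, genes of several functions. *jund.S*, a subunit of the AP-1 transcription factor, read 9.58, 8.87, 8.17 and 4.69. *zbtb33.S*, the Kaiso repressor, read 10.29, 9.19, 8.56 and 5.44, but another probe set read 4.80, 5.67, 5.69 and 5.85, with its highest value on GFP 4. The last of its 3 probe sets was not above background on any array. *enpp2.S*, autotaxin, which makes lysophosphatidic acid, read 6.88, 10.40, 10.41 and 7.36, with GFP 2 and GFP 3 high. *hebp2.S*, a heme-binding protein, read 9.45, 9.66, 6.56 and 5.48. *mt4.L*, a metallothionein, read 4.22, 5.19, 7.13 and 2.94. In these 2 genes GFP 4 was lowest. *cxcr4.L*, a chemokine receptor, read 4.51, 5.14, 5.64 and 8.31, and *lmo4.2.S*, a LIM-only cofactor, read 4.81, 4.83, 5.73 and 8.16, both highest on GFP 4. *h2bc11.S*, a histone H2B gene, read 7.39, 4.03, 4.40 and 4.37, and it was the gene of the 15 that stood out on GFP 1 alone. A probe set could differ where its neighbour did not: the brightest probe set of *eef1a1.S* had an SD of 0.04, and another read 9.72, 8.06, 7.87 and 5.05.

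**Figure D5:**
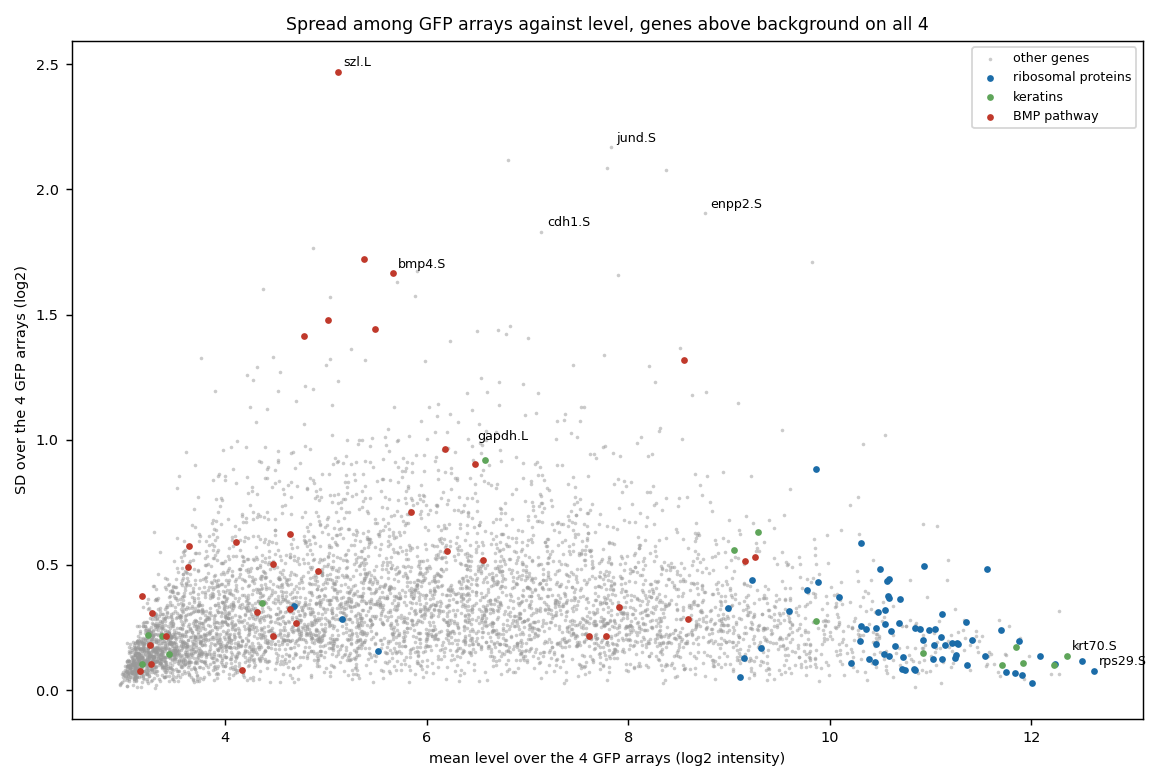
SD over the 4 GFP arrays (y axis, log2) against mean log2 intensity (x axis) for the 5982 gene symbols above background. Ribosomal proteins, keratins and BMP pathway genes are coloured and a few genes are named, with *szl.L* at the top (SD 2.47) and *rps29.S* at the far right (mean 12.62).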

How the data were processed

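The values the authors deposited are intensity on a linear scale. Per the submitters' processing notes, which give no version, they came from RMA, a method that subtracts background, equalises the distributions of arrays and combines the probes of a probe set. The methods add a scaling to control caps in GeneSpring, and no source used here says whether the values contain it. The log2 of each intensity was taken, without a pseudocount or further normalization. RMA compresses low values, so differences near background are understated.

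Of 15611 probe sets, 120 are Affymetrix controls. Symbols came from an annotation table of the array (1 symbol for 9304 probe sets, several for 195, none for 5992), and 9227 matched a RefSeq table of gene names by gene ID. Probe sets with several symbols were not named. Whether a probe set also reads the other homoeologous copy is not known. Lists are patterns of gene symbols. The members and lists were chosen with earlier results of these data known, and symbols that a pattern caught wrongly were excluded after the files were read. *krtcap3.L*, which is not a keratin, stayed among the epidermis markers.

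Named genes are the measured markers of each cell type, up to 6 brightest members of each list above background, the 20 strongest symbols and the 15 of largest SD. Clone and locus numbers were left out. Detection was tested in R 4.3.3 with eBayes of limma 3.58.1 (one-sided, threshold 0.05 after Benjamini-Hochberg adjustment), and the fit was tested on simulated data. Other values were computed in Python 3.11.15 with numpy 2.4.6 and pandas 2.3.3. The number of arrays limits the precision. Alternatives covered the background limit, the scaling of arrays, the probe set that stands for a gene and leaving out each array.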

Additional observations from a re-analysis of the deposited data

Results flagged for a closer look

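In 7 of the 244 named genes above background (2.87%), the gap between the highest or lowest array and its nearest neighbour was large for the range of the group, by Dixon's 95% critical value. Chance alone gives this in about 1 in 20 groups, so the number is not above what chance gives. *smad7.L* on GFP 4 read 10.53, with 7.85 to 7.93 on the other arrays, and *bmp7.2.L* on GFP 4 read 7.94, with 4.32 to 4.81. *h2bc11.S* on GFP 1 read 7.39, with 4.03 on GFP 2 as the lowest. *hoxc6.S* on GFP 1 read 4.31, with 3.70 to 3.80, and *rax.S* on GFP 1 read 3.37, with 3.14 to 3.18. On GFP 2, *pax8.L* was high at 3.25, with 3.03 to 3.06, and *cdc20.S* was low at 9.12, with 9.48 to 9.54.

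Of 46 control probe sets other than the tag, bacterial, actin and GAPDH controls, 6 exceeded the background limit by more than 1 log2 unit on at least 1 GFP array. In 3 of them replicate 4 differed from the rest: the highest GFP values were 12.42 on GFP 3, with 2.94 on GFP 4, and 11.33 and 11.54 on GFP 4, with 2.63 and 2.48 as the lowest. The other 3 reached 13.82, 4.55 and 4.22, with lowest GFP values of 13.69, 4.22 and 3.32.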

How the results depend on the processing

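Of 380 recomputed counts and summary values, 356 stayed within the limits set for them, which for counts was a factor of 1.5. None reversed, but a count can only move and cannot reverse. The levels of single genes stayed within their limits in all 1430 cases. Such levels could still shift: the mean of *szl.L* was 5.12, and 3.93 without GFP 4. The background limit mattered most. With a limit 1 log2 unit higher, 7331 probe sets were above it and 6341 at or below it on all 4 arrays, and with the second-highest tag control 966 were at or below it. With the higher limit the lists kept these numbers above it: BMP 23, FGF 6, Wnt 10, Notch 5, pluripotency 11, neural plate 8, eye field 4, placodes 0, small secretory cells 0, mesoderm and muscle 6, endoderm 3, blood and vessel 3, neurons 3, lens and retina 1, liver and serum 1, Hox genes 2, germ plasm and oocyte 5, glycolysis 13, and matrix and integrins 11. Over all symbols, 55.5% were above the higher limit. With the median probe set of each symbol, placodes kept 3 and 13 of the 20 strongest symbols were shared. Leaving out each array in turn gave 11561 to 11655 probe sets above background, 10653 to 10952 called by limma, and a median SD of 0.216 (without GFP 4) to 0.279. The count of BMP genes highest on GFP 4, 24 of 35, was 21 with equal array medians, 24 after another quantile normalization and 24 with the median probe set, alternatives chosen after seeing the data. No paired analysis was possible because the levels of 1 group were described and no groups were compared. With 4 arrays, levels close to the limit cannot be told from background, and the smallest mean excess called by limma was 0.149.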
